A study of Mus musculus with 12 samples.

Results

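Organoids of the mouse small intestine, grown for 12 weeks in culture, were set against crypts freshly isolated from the same parts of the gut. The comparison took 9 of the 12 libraries of the study. The 3 organoid libraries came 1 each from duodenum, jejunum and ileum, and the 6 crypt libraries came 2 each from these origins. Libraries were chosen by their labels alone, and the 3 villus libraries, 1 per origin, are quoted only as a further level. The organoids had been started from isolated crypts by a published protocol for cultures that need no mesenchyme, per the labels. Strain, age, sex and genotype of the mice and the number of animals or cultures behind a library are not given in the labels used here. Whether replicates are separate animals is not in the labels either, and the p-values then describe the spread between these libraries, which may be technical. The comparison asks how far an epithelium kept for months outside the animal still resembles, in its RNA, the crypts that such cultures start from.

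Crypts hold the stem cells of the intestine, marked by the Wnt-dependent receptor Lgr5, and the Paneth cells that lie between them. Their progeny divide under Wnt, Notch and EGF signals and leave the crypt as absorptive enterocytes or as goblet, enteroendocrine and tuft cells, while BMP signals from the stroma oppose the stem cell state. Organoid cultures of this kind grow as closed buds of epithelium in a laminin-rich gel, usually fed with EGF, the BMP inhibitor Noggin and the Wnt agonist R-spondin, without stroma, immune cells, vessels or gut contents. The medium of these cultures is not listed in the labels.

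Poly(A) RNA was read as short tags and deposited as RPKM, a read count scaled to exon length and library size. Read totals implied by the RPKM steps were 10829828 to 18591819 in organoids and 5268480 to 10275855 in crypts, so 1 read in a transcript of 2 kb was worth 0.0269 to 0.0462 RPKM in organoids and 0.0487 to 0.0949 RPKM in crypts. The 26 listed genes of leukocytes summed to 18.5 to 25.3 RPKM in organoids and 22.05 to 88.1 RPKM in crypts, and 24 of stroma, muscle, vessels and nerves to 6.64 to 11.4 RPKM in organoids and 3.46 to 14.9 RPKM in crypts. The T cell genes Cd3d, Cd3g and Cd8a and the B cell gene Cd79a were at 0 in all 3 organoid libraries. They were near 0 in crypts too, with medians of 0, 0.213, 0.0854 and 0.310 RPKM in that order. Their highest crypt values were 0.179, 0.951, 0.218 and 0.505 RPKM. Reads of 4 Y-linked genes numbered 0, 1 and 0 in the organoid libraries of duodenum, jejunum and ileum, against 37, 53 and 43 in crypt replicate 1 and 455, 361 and 400 in crypt replicate 2, and 0 in each villus library. Y-linked reads thus moved with the comparison, and the sex of the animals cannot be told apart from culture. At every origin the level of enterocyte genes was larger in replicate 2 of the crypts, as given below.

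Values are given below for the organoid libraries in the order duodenum, jejunum, ileum, and for the crypt libraries as the lowest and the highest of 6 with their median. Fold changes are differences of log2(RPKM + 1), organoid minus crypt with origin as a term, a scale that shrinks the change of low genes. Each log2 change is followed by ± its standard error, and every adjusted p is Benjamini-Hochberg adjusted over all genes tested, from limma; a gene was called higher or lower where it was below 0.05. Of 11255 genes tested, 4904 were called (43.6%), 2381 of them higher (21.2%) and 2523 lower (22.4%) in organoids. The counts of list members given below stand beside these shares over all genes. All 3 organoid libraries lay above all 6 crypt libraries for 1898 genes (16.9%) and below them for 2540 (22.6%). Among the called genes, 1652 were higher and 1753 lower by at least 1 on the log2 scale, and 56 were higher and 49 lower by at least 3. Scaled to reads in genes, 1821 genes were higher and 3285 lower, with the median over all genes shifted by -0.20. Against crypt replicate 1 alone 3682 genes were higher. Without the ileal organoid library 1025 were higher and 1297 lower, without the jejunal organoid library 1481 were higher, and without the duodenal organoid library 1640 were lower. In bulk RNA, fewer cells of a type and less RNA per cell cannot be told apart.

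The organoid libraries differed from the crypt libraries by the GC content of transcripts. Over genes, Spearman's correlation of the fold change was -0.52 with GC content and -0.27 with exon length, as a description of genes that share 9 libraries. Median GC content was 45.9% for genes higher in organoids, 55.7% for genes lower in organoids and 49.9% for the others. With genes in 10 groups by GC content, the level of the richest group minus that of the poorest, each set against the crypt mean, was -1.84 to -1.32 in organoids, -0.48 to 0.28 in crypts and 0.01 to 0.17 in villi. An alternative chosen after seeing the data, called the GC and length correction below, removed a spline in GC content and length from each library; 1964 genes were then higher and 1818 lower of 11071, 2464 genes kept their call and direction and 48 were called the opposite way. Of the 130 called genes named below, 16 lost their call under it, at adjusted p of 0.0576 to 0.608: Anpep, Anxa10, Axin2, Bmpr1a, Cd74, Cdkn1a, Duox2, Fgf15, Hoxb4, Ifi27, Itgam, Lct, Notch1, Pcna, Plac8 and Reg1. GC content of the libraries and culture cannot be told apart in this design.

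**Figure D1:**
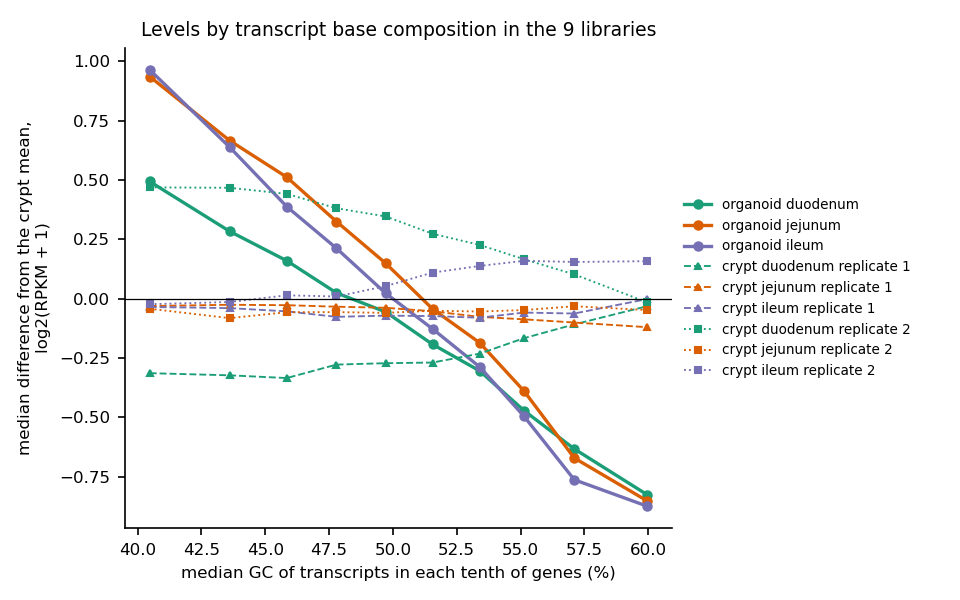
Median difference in log2(RPKM + 1) from the mean of the 6 crypt libraries for genes in 10 equal groups by the GC content of their transcripts (horizontal axis, median GC in percent), with 1 line per library for 3 organoid and 6 crypt libraries. The organoid lines lie between 0.49 and 0.96 in the poorest group and between -0.87 and -0.83 in the richest, while crypt lines stay between -0.33 and 0.47.

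**Figure D2:**
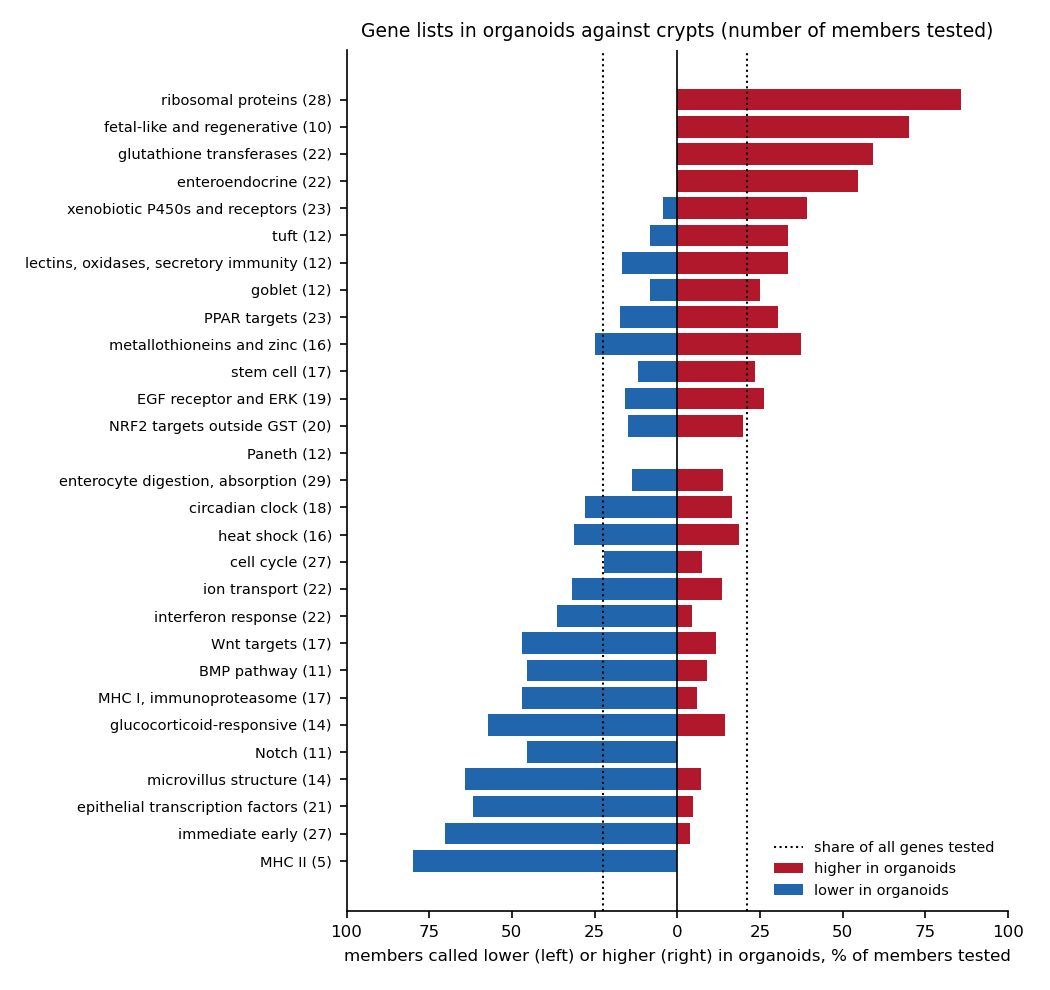
Share of the tested genes of 29 gene lists that were called higher (right) or lower (left) in organoids than in crypts, in percent of the genes tested in each list; dotted lines mark the shares over all 11255 genes, 21.2% higher and 22.4% lower. Ribosomal protein, fetal-like and glutathione transferase lists reach furthest to the right, MHC class II and immediate early lists furthest to the left.

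The 4 genes given as marks of the organoid side had the widest upward changes among the genes named here. Mt2, a metallothionein that binds zinc and copper, had 10367, 6264 and 8383 RPKM in organoids, against 57.7 to 184 (median 109) in crypts. S100g, the calcium-binding protein calbindin-D9k of absorptive cells, had 1378, 692 and 1932 RPKM in organoids, against 5.02 to 136 (median 13.5) in crypts. Gsta3, a glutathione transferase, had 73.6, 94.5 and 150.1 RPKM in organoids, against 0.131 to 2.31 (median 1.27) in crypts. Every organoid library exceeded every crypt library for these genes, and the spread among crypts was widest for S100g, whose highest crypt library was duodenal replicate 2. Cyp2c66, a cytochrome P450, had 139, 81.4 and 58.8 RPKM in organoids, against 0 to 8.59 (median 0.561) in crypts, again without overlap. The changes were 6.21 (SE 0.41) for Mt2, 6.06 (SE 0.64) for S100g, 5.54 (SE 0.31) for Gsta3 and 5.34 (SE 0.52) for Cyp2c66 on the log2 scale, with adjusted p of 1.99e-05, 1.47e-04, 1.85e-05 and 1.14e-04 in that order. By origin the S100g change was 4.76 in duodenum, 6.47 in jejunum and 6.95 in ileum. The 2 genes given as marks of the crypt side were Atf3 and Usp2. Atf3, a stress-induced transcription factor of the immediate early class, had 3.97, 4.19 and 2.83 RPKM in organoids, against 58.1 to 156 (median 98.5) in crypts. Usp2, a ubiquitin-specific protease under circadian control, had 0.406, 0.765 and 0.413 RPKM in organoids, against 23.8 to 49.6 (median 32.1) in crypts, which rested on 17, 55 and 22 reads in organoids against 824 to 1764 in crypts. No organoid library reached the lowest crypt library for either gene (log2 change -4.39 ± 0.37, adjusted p = 7.90e-05 for Atf3; log2 change -4.56 ± 0.28, adjusted p = 1.85e-05 for Usp2). All 6 genes kept their call under each alternative tried. They were given as marks of this comparison, so their calls are no separate support for it.

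**Figure D3:**
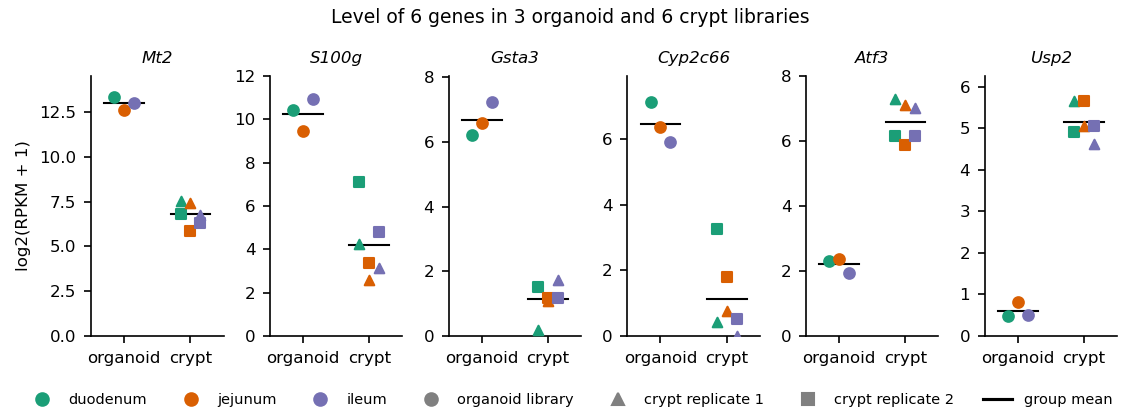
Level, as log2(RPKM + 1), of Mt2, S100g, Gsta3, Cyp2c66, Atf3 and Usp2 in the 3 organoid libraries (left) and the 6 crypt libraries (right) of each panel, on axes that start at 0. Points are libraries coloured by origin, triangles are crypt replicate 1, squares crypt replicate 2, and lines are group means; organoids and crypts do not overlap in any panel.

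Metallothioneins are small cysteine-rich proteins whose genes are switched on by zinc through the factor Mtf1, which binds metal response elements in their promoters. The genes Mt1, Mt2, Mt3 and Mt4 lie on chromosome 8 between 96661103 and 96704223 in mm9 coordinates, and the 3 that could be tested were all higher in organoids. The promoters of these 3 are shown because they moved together: 250 bases before to 50 bases after the start, plus strand, from RefSeq on GRCm38.p6, at chr8:94178839-94179138 for Mt1, chr8:94172368-94172667 for Mt2 and chr8:94136954-94137253 for Mt4. The RefSeq starts need not be those of the transcripts measured: the windows of Mt1 and Mt2 are spaced otherwise than their deposited mm9 starts. Match counts may thus refer to unlike positions. Capitals mark TGCNCNC, searched on both strands. This pattern is looser than the core of the metal response element, TGCRCNC, where R is A or G. Some matches, among them most of those in Mt4, do not have the stricter core. In Mt4 a pair of matches abut.
Mt1: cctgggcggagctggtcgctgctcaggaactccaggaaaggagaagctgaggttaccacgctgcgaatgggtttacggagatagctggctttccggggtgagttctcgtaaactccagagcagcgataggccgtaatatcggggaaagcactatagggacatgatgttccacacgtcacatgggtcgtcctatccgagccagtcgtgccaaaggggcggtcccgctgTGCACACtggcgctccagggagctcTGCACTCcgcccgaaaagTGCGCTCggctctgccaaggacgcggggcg
Mt2: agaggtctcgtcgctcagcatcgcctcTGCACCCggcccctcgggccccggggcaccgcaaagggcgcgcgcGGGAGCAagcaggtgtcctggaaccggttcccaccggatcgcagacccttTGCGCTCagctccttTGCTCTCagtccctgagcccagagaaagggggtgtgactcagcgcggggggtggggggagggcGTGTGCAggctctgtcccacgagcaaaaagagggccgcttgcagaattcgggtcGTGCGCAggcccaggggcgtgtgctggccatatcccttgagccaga
Mt4: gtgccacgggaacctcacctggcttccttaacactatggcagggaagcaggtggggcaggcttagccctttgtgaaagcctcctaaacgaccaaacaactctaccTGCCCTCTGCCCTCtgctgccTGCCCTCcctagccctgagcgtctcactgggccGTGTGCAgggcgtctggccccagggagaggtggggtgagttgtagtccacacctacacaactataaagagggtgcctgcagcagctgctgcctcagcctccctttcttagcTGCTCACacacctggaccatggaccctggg
The window of Mt1 held 3 matches, that of Mt2 held 6 and that of Mt4 held 5; those of Mt3, which could not be tested, and of Slc30a1, which did not pass the test, held 3 and 2. Of 32851 promoter windows of the same length, 7.10% held at least 3 matches, 0.697% at least 5 and 0.225% at least 6. A match is a description of the letters and not a site of binding.

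Mt1 had 17816, 13787 and 17406 RPKM in organoids, against 444 to 641 (median 554) in crypts (log2 change 4.91 ± 0.38, adjusted p = 6.56e-05). Mt4, which in the mouse is known from stratified epithelia, had 11.3, 48.1 and 41.9 RPKM in organoids, against 0 to 0.271 (median 0) in crypts, from 48, 350 and 226 reads in organoids against 1 read in all 6 crypt libraries (log2 change 4.83 ± 0.36, adjusted p = 5.20e-05). Organoids stood above crypts for all 3 genes at every origin, and the ratio of pooled read rates for Mt4 was 749 (95% counting interval 134 to 29650). Mt4 passed the filter on reads through the organoid libraries alone. Across metallothioneins and zinc genes, 6 of 16 tested were higher and 4 lower, with a median change of 0.28. The zinc importer Slc39a8 was higher, at 11.2, 24.5 and 24.4 RPKM in organoids, against 1.03 to 3.66 (median 2.17) in crypts (log2 change 2.71 ± 0.37, adjusted p = 4.10e-04). The vesicular zinc exporter Slc30a2 was lower, at 0.251, 1.57 and 1.04 RPKM in organoids, against 4.26 to 12.9 (median 8.42) in crypts (log2 change -2.21 ± 0.24, adjusted p = 1.63e-04). Mtf1 itself was lower too, at 2.30, 2.96 and 2.54 RPKM in organoids, against 5.05 to 9.15 (median 5.50) in crypts (adjusted p = 0.00879), a call lost without the ileal organoid library (adjusted p 0.0756). Slc30a1, the exporter of the cell surface and another target of Mtf1, had 1.82, 2.49 and 2.80 RPKM in organoids, against 1.56 to 4.24 (median 2.21) in crypts and did not pass the test (adjusted p = 0.818). The number lower was 2 of 16 without the ileal organoid library.

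Glutathione transferases, which join glutathione to reactive compounds, were higher as a group: 13 of 22 tested were higher, none was lower, and the median change was 1.85, beside 0.02 over all genes. Of those without a call, 9 in number, all had positive fold changes. A member near 0 in crypts could pass the filter on reads only through the organoid libraries, where it was high. Gsta4, which handles products of lipid peroxidation, had 982, 319 and 462 RPKM in organoids, against 7.73 to 119 (median 29.7) in crypts (log2 change 4.06 ± 0.72, adjusted p = 0.00155). Gstt1 had 437, 242 and 311 RPKM in organoids, against 18.9 to 64.0 (median 28.4) in crypts (log2 change 3.30 ± 0.36, adjusted p = 1.67e-04). The organoid and crypt ranges of both genes did not overlap. Against crypt replicate 1 alone 21 of the 22 were higher, and after the GC and length correction 10 were. Ephx1, the microsomal epoxide hydrolase, had 99.6, 66.5 and 96.5 RPKM in organoids, against 7.01 to 28.9 (median 12.1) in crypts (log2 change 2.62 ± 0.31, adjusted p = 2.03e-04). Cbr3, a carbonyl reductase, had 7.46, 5.83 and 2.06 RPKM in organoids, against 0 to 1.09 (median 0.180) in crypts (log2 change 2.14 ± 0.27, adjusted p = 2.64e-04). Of 20 other tested genes known as targets of the oxidant-sensing factor NRF2, 4 were higher and 3 lower. Over all genes tested the shares were 21.2% and 22.4%. Among those lower were Pgd of the pentose phosphate pathway, at 28.4, 26.7 and 21.4 RPKM in organoids, against 67.6 to 138 (median 94.6) in crypts (log2 change -1.86 ± 0.33, adjusted p = 0.00145), and Txnrd1, a thioredoxin reductase, at 5.67, 9.15 and 6.03 RPKM in organoids, against 12.3 to 42.0 (median 28.1) in crypts (log2 change -1.83 ± 0.38, adjusted p = 0.00329). Without the duodenal or ileal organoid library 2 NRF2 targets were higher, and after the GC and length correction 6 were lower.

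Cytochromes P450 of foreign-compound metabolism and their receptors gave 9 higher and 1 lower of 23 tested, with a median of 1.64. Called members near 0 in every crypt library could pass the filter on reads only through the 3 organoid libraries. For them a higher level in organoids was a condition of being tested. Cyp2c29, which oxidises drugs and arachidonic acid in mouse liver, had 35.2, 64.4 and 54.6 RPKM in organoids, against 0 to 1.37 (median 0.128) in crypts (log2 change 5.24 ± 0.34, adjusted p = 1.99e-05). Cyp2c65 had 148, 98.9 and 67.1 RPKM in organoids, against 2.19 to 42.3 (median 12.6) in crypts (log2 change 3.04 ± 0.61, adjusted p = 0.00277). No crypt library reached the lowest organoid library for either gene. Of 7 tested Cyp2c genes, which lie on chromosome 19 between 39081508 and 44103688 in mm9 coordinates, 5 were higher; Cyp2c55 had 57.9, 39.0 and 38.2 RPKM in organoids, against 3.92 to 121 (median 7.20) in crypts (adjusted p = 0.0624), with its highest crypt value in ileal replicate 2. These genes and the glutathione transferases are close paralogs, so reads may be split among them in ways not given here. The receptor Nr1i3 (CAR) was higher, at 18.4, 29.2 and 15.6 RPKM in organoids, against 2.61 to 19.6 (median 6.94) in crypts (adjusted p = 0.0260), a call lost without the jejunal or ileal organoid library or jejunal crypt replicate 1 (adjusted p 0.0523 to 0.205), while the receptor Nr1i2 (PXR) had 10.4, 13.9 and 11.3 RPKM in organoids, against 12.5 to 29.2 (median 21.0) in crypts (adjusted p = 0.0583). Against crypt replicate 1 alone the list gave 18 higher and 1 lower, against crypt replicate 2 alone 8 and 7, and with the replicate number as a block 15 and 4. Without the jejunal or ileal organoid library or jejunal crypt replicate 2 the member called lower lost its call, while 3 were lower without duodenal crypt replicate 1.

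S100g is listed with genes of calcium uptake and vitamin D action, of which 8 of 16 had enough reads to be tested. Of these 8, 2 were higher and 3 lower (median -0.59). The number higher was 1 without the jejunal or ileal organoid library, replicate 1 of any crypt origin or jejunal crypt replicate 2, and with values scaled to reads in genes. Vdr, the vitamin D receptor that drives S100g in the intestine, was lower, at 28.4, 42.3 and 24.9 RPKM in organoids, against 65.7 to 97.0 (median 77.5) in crypts (log2 change -1.31 ± 0.27, adjusted p = 0.00331). Its partner Rxra was lower, at 3.03, 2.93 and 1.31 RPKM in organoids, against 11.1 to 20.1 (median 14.5) in crypts (log2 change -2.22 ± 0.30, adjusted p = 3.82e-04). Both receptors lay below every crypt library in every organoid library, opposite to S100g. Among iron genes, 3 of 13 tested were higher and 2 lower, beside 21.2% higher and 22.4% lower of all genes tested. The metalloreductase Steap3 was lower, at 1.83, 1.82 and 1.39 RPKM in organoids, against 6.74 to 10.8 (median 8.05) in crypts (log2 change -1.80 ± 0.25, adjusted p = 4.74e-04). With the replicate number as a block 5 iron genes were lower, and with any 1 organoid library or library of crypt replicate 2 left out 1 was, but 5 were without duodenal crypt replicate 1; 1 was higher without the ileal organoid library.

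Enteroendocrine cells are rare hormone-producing cells, and their genes were the cell type list with the most calls in one direction. Of 22 tested, 12 were higher and none lower, with a median of 1.32; the count was 11 to 13 in the fits that left out 1 library and 13 after the GC and length correction. Cck, the hormone of gallbladder contraction and satiety, had 578, 358 and 945 RPKM in organoids, against 7.65 to 70.7 (median 27.1) in crypts (log2 change 4.52 ± 0.52, adjusted p = 1.88e-04). Gcg, the precursor of the incretin GLP-1, had 145, 269 and 1224 RPKM in organoids, against 13.7 to 46.1 (median 20.5) in crypts (log2 change 4.00 ± 0.52, adjusted p = 3.30e-04), and in organoids its highest value was in the ileal library. Tac1, the precursor of substance P, had 98.8, 44.8 and 72.5 RPKM in organoids, against 0.865 to 13.6 (median 4.19) in crypts (log2 change 3.89 ± 0.43, adjusted p = 1.74e-04). These hormones did not overlap between organoids and crypts. Gip, the glucose-dependent incretin, had 626, 357 and 275 RPKM in organoids, against 14.5 to 205 (median 67.7) in crypts, with its highest organoid and crypt values in the duodenum (log2 change 2.90 ± 0.41, adjusted p = 4.95e-04). Nts, neurotensin of the distal gut, had 3.29, 30.2 and 166 RPKM in organoids, against 0 to 9.81 (median 1.77) in crypts (log2 change 3.41 ± 0.51, adjusted p = 6.29e-04), with its highest organoid value and its highest crypt value in the ileum. Its duodenal organoid value lay within the crypt range. Ghrl, the precursor of ghrelin, had 324, 155 and 113 RPKM in organoids, against 13.2 to 143 (median 48.1) in crypts (log2 change 2.01 ± 0.33, adjusted p = 0.00109). Its crypt range reached into the organoid range, since the duodenal crypts stood near the ileal and jejunal organoids. Tph1, the enzyme that makes serotonin in enterochromaffin cells, had 16.3, 11.1 and 18.8 RPKM in organoids, against 0.938 to 1.97 (median 1.72) in crypts (log2 change 2.65 ± 0.26, adjusted p = 1.22e-04). The transcription factor that starts the lineage, Neurog3, had 21.4, 11.1 and 14.4 RPKM in organoids, against 2.78 to 9.51 (median 4.24) in crypts (log2 change 1.45 ± 0.25, adjusted p = 0.00138). The granule protein Chgb had 38.3, 40.6 and 33.5 RPKM in organoids, against 7.19 to 24.7 (median 10.9) in crypts (log2 change 1.56 ± 0.28, adjusted p = 0.00158).

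Other members of the lineage did not pass the test. Sct, secretin, had 42.1, 34.3 and 61.5 RPKM in organoids, against 23.9 to 219.8 (median 80.8) in crypts (adjusted p = 0.272). Sst, somatostatin, had 629, 73.2 and 148 RPKM in organoids, against 34.2 to 169 (median 96.4) in crypts (adjusted p = 0.158), with the duodenal organoid library far above the other two. Pyy, a hormone of the distal gut, had 1.48, 3.35 and 47.5 RPKM in organoids, against 0.426 to 74.5 (median 6.67) in crypts (adjusted p = 0.936). The ileal library held the highest Pyy value in organoids and an ileal library did in crypts. Chga, the general granule protein, had 20.2, 15.1 and 21.5 RPKM in organoids, against 11.5 to 37.7 (median 17.0) in crypts (adjusted p = 0.913). The mean level of the list, as log2(RPKM + 1), was 4.12 to 4.81 in organoids, 2.56 to 3.34 in crypts and 3.02 to 3.27 in villi.

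**Figure D4:**
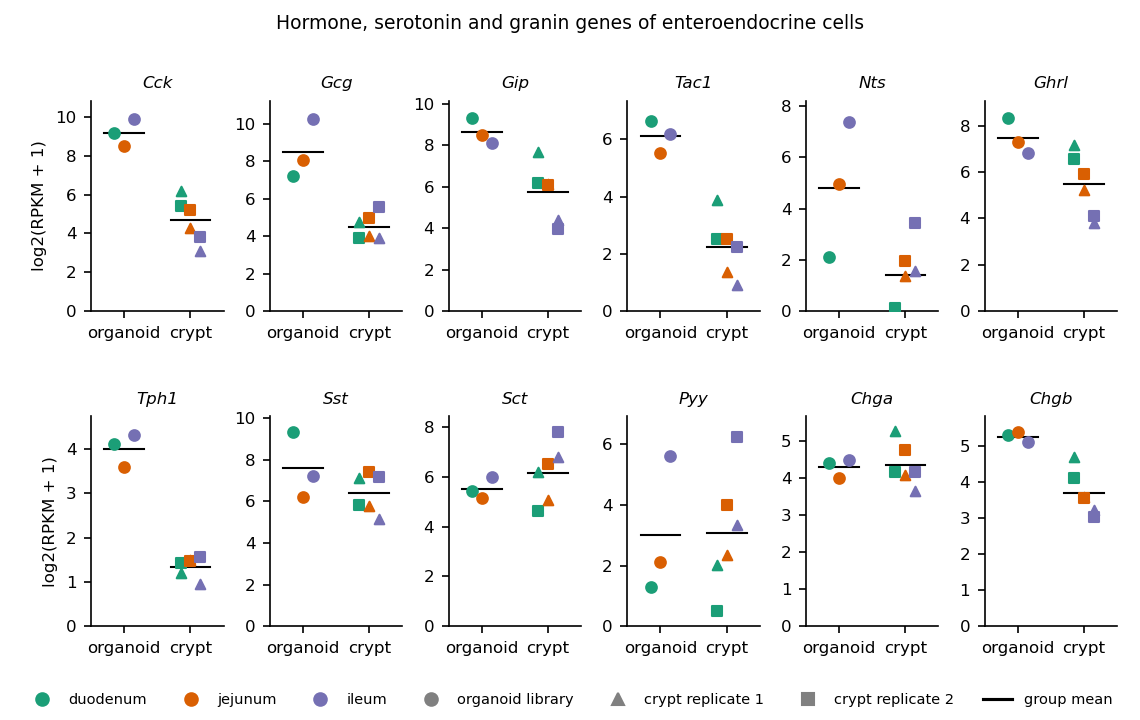
Level, as log2(RPKM + 1), of 12 enteroendocrine genes in the 3 organoid libraries (left of each panel) and the 6 crypt libraries (right), on axes that start at 0, with colours for origin, triangles for crypt replicate 1, squares for crypt replicate 2 and lines at group means. Cck, Gcg, Gip, Tac1, Tph1 and Chgb separate the groups. Nts, Ghrl, Sct, Pyy, Sst and Chga overlap.

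Of genes known from fetal and regenerating gut epithelium, 10 of 18 could be tested, and the others had too few reads. Of these 10, 7 were higher and none lower (median 2.65). Members near 0 in crypts could pass the filter on reads only through the 3 organoid libraries. For such members a higher level in organoids was a condition of being tested. Ly6a (Sca-1), a surface marker of the repairing epithelium, had 74.5, 30.7 and 149.8 RPKM in organoids, against 0.522 to 5.52 (median 1.90) in crypts (log2 change 4.59 ± 0.45, adjusted p = 1.22e-04). Sprr1a, a cornified envelope protein, had 88.5, 11.8 and 33.5 RPKM in organoids, against 0 to 2.96 (median 0) in crypts (log2 change 4.73 ± 0.53, adjusted p = 1.74e-04). Il1rn, the interleukin-1 receptor antagonist, had 15.8, 16.5 and 35.5 RPKM in organoids, against 0.0934 to 1.15 (median 0.427) in crypts (log2 change 3.92 ± 0.24, adjusted p = 1.85e-05). No crypt library came near the organoid range for these genes, and the jejunal organoids were the lowest of the 3 for Ly6a and Sprr1a. Anxa3 had 16.5, 7.31 and 34.9 RPKM in organoids, against 0.271 to 2.13 (median 0.965) in crypts (log2 change 3.16 ± 0.29, adjusted p = 1.09e-04). Clu, clusterin, had 42.9, 16.0 and 22.4 RPKM in organoids, against 0.824 to 16.3 (median 0.987) in crypts (log2 change 3.13 ± 0.54, adjusted p = 0.00130). For Clu 1 crypt library, duodenal replicate 2, lay within the organoid range. Krt7, a keratin on the same list, had 72.2, 55.3 and 94.1 RPKM in organoids, against 75.6 to 219.9 (median 98.7) in crypts and did not pass the test (adjusted p = 0.0943). With the replicate number as a block 2 members were lower, and after the GC and length correction 6 were higher and 2 lower. Anxa10, an annexin, had 347, 62 and 31 reads in the organoid libraries (1.83 to 26.1 RPKM) and no read in the 6 crypt libraries. It thus passed the filter on reads through the organoid libraries alone. Pooled, its 440 reads made it at least 176-fold higher in organoids (floor of 3 reads over the crypt group, adjusted p = 0.00125). Most of these reads were in the duodenal library, so the bound does not hold for each origin. The keratin Krt23 had 43.6, 39.8 and 61.7 RPKM in organoids, against 3.23 to 9.73 (median 5.21) in crypts (log2 change 2.90 ± 0.25, adjusted p = 7.97e-05). The junction protein Cldn8 had 13.7, 4.77 and 16.0 RPKM in organoids, against 0.229 to 1.66 (median 0.808) in crypts (log2 change 2.62 ± 0.28, adjusted p = 1.47e-04).

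Of 12 tested genes of a microbe-responsive list 4 were higher and 2 lower in organoids; 3 of the higher ones encode secreted lectins of the Reg family, which in the gut are induced by bacteria and act on them. Reg3g had 1468, 2991 and 7976 RPKM in organoids, against 29.2 to 1353 (median 157) in crypts (log2 change 4.24 ± 0.57, adjusted p = 3.80e-04). Pap (Reg3b) had 648, 2895 and 3634 RPKM in organoids, against 10.3 to 1439 (median 53.8) in crypts (log2 change 4.70 ± 0.82, adjusted p = 0.00139). For both genes the ileal crypts were the highest of the crypts, and for Pap ileal crypt replicate 2 lay within the organoid range. Reg1 had 9598, 219 and 38.9 RPKM in organoids, against 3.63 to 1005 (median 24.6) in crypts (log2 change 3.79 ± 0.91, adjusted p = 0.00721), with nearly all of the organoid signal in the duodenal library; without that library its adjusted p was 0.0756. Duox2 and Duoxa2, the epithelial oxidase and its maturation factor, were lower, Duox2 at 0.101, 0.437 and 0.271 RPKM in organoids, against 0.280 to 3.50 (median 2.02) in crypts (adjusted p = 0.0137) and Duoxa2 at 1.28, 0.676 and 2.10 RPKM in organoids, against 0.835 to 16.8 (median 6.04) in crypts (adjusted p = 0.0282). The Duox2 call was lost without the jejunal or ileal organoid library (adjusted p 0.0849 to 0.148), and the Duoxa2 call was lost without the jejunal or ileal organoid library (adjusted p 0.202 to 0.209). With the replicate number as a block 7 of this list were higher.

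**Figure D5:**
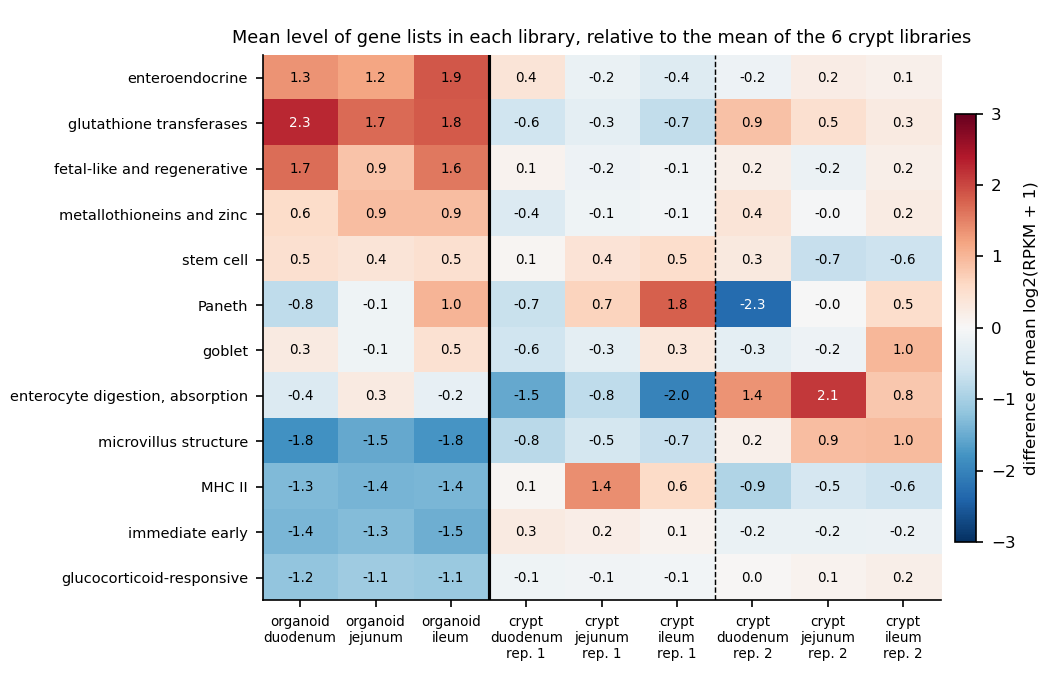
Mean level of 12 gene lists in each of the 9 libraries, organoids left and crypts right, coloured by the difference in mean log2(RPKM + 1) from the mean of the 6 crypt libraries. Enteroendocrine, glutathione transferase and fetal-like lists are above that mean and immediate early, glucocorticoid and MHC class II lists below it in every organoid library, while the enterocyte and Paneth lists differ between the crypt replicates.

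Immediate early genes, which cells transcribe within minutes of a growth signal or of stress, were the list with the most calls on the crypt side. Of 27 tested, 19 were lower in organoids and 1 was higher, with a median of -1.40; 14 to 20 were lower in the fits that left out 1 library, and 12 after the GC and length correction. Jun had 17.3, 25.05 and 19.1 RPKM in organoids, against 109 to 371 (median 204) in crypts (log2 change -3.21 ± 0.42, adjusted p = 3.27e-04). Dusp1, a phosphatase that switches off stress kinases, had 6.79, 5.91 and 6.28 RPKM in organoids, against 47.6 to 64.8 (median 55.9) in crypts (log2 change -2.95 ± 0.24, adjusted p = 6.56e-05). Rhob, a short-lived GTPase, had 7.26, 8.24 and 7.36 RPKM in organoids, against 36.1 to 57.6 (median 39.1) in crypts (log2 change -2.29 ± 0.24, adjusted p = 1.52e-04). None of the organoid libraries overlapped the crypts for these genes. Fos had 109.8, 132 and 93.6 RPKM in organoids, against 213 to 399 (median 297) in crypts (log2 change -1.40 ± 0.33, adjusted p = 0.00633), a call lost without the ileal organoid library (adjusted p 0.0688). Myc, counted on this list and on that of Wnt targets, was the 1 member higher, at 32.1, 27.2 and 31.9 RPKM in organoids, against 9.97 to 22.4 (median 16.5) in crypts (log2 change 0.88 ± 0.32, adjusted p = 0.0430), a call lost without any 1 organoid library, duodenal crypt replicate 1, jejunal crypt replicate 2 or ileal crypt replicate 2 (adjusted p 0.0522 to 0.168) and also when scaled to reads in genes. The mean level of the list was 3.10 to 3.27 in organoids, 4.35 to 4.82 in crypts and 3.17 to 3.44 in villi as log2(RPKM + 1), so freshly isolated villi lay near organoids by level. Hbegf, an EGF receptor ligand induced with this class, had 20.3, 21.3 and 15.4 RPKM in organoids, against 124 to 364 (median 175) in crypts (log2 change -3.28 ± 0.37, adjusted p = 1.84e-04). Hk2, a hexokinase, had 2.78, 2.01 and 1.46 RPKM in organoids, against 17.9 to 98.6 (median 37.3) in crypts (log2 change -3.60 ± 0.49, adjusted p = 3.97e-04). Both were highest in replicate 1 of the crypts.

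Genes that respond to glucocorticoids were also lower: of 14 tested, 8 were lower and 2 higher, with a median of -2.000, and the count of 8 was 7 to 8 in the fits that left out 1 library, while 1 was higher with any 1 organoid library left out. Klf9, a transcription factor induced by glucocorticoids and by the clock, had 1.61, 2.84 and 3.34 RPKM in organoids, against 24.9 to 46.0 (median 34.0) in crypts (log2 change -3.33 ± 0.28, adjusted p = 7.26e-05). Nfkbia, the inhibitor of NF-kB, had 61.5, 77.7 and 99.3 RPKM in organoids, against 268 to 515 (median 393) in crypts (log2 change -2.25 ± 0.33, adjusted p = 6.28e-04). Fkbp5, a chaperone that dampens the glucocorticoid receptor, had 0.451, 0.788 and 0.584 RPKM in organoids, against 2.97 to 14.9 (median 4.75) in crypts (log2 change -2.08 ± 0.42, adjusted p = 0.00310). The kinase Sgk1 had 0.153, 0.802 and 1.08 RPKM in organoids, against 1.89 to 18.8 (median 7.88) in crypts (log2 change -2.44 ± 0.45, adjusted p = 0.00184). For each of these the highest organoid library was below the lowest crypt library. The list shares Dusp1 with the immediate early genes and Usp2 with the clock genes. Its mean level was 1.58 to 1.70 in organoids, 2.64 to 2.96 in crypts and 2.34 to 2.51 in villi. Among 18 clock genes tested, 3 were higher and 5 lower. Nr1d1 (REV-ERB alpha), a repressor of the clock, was lower, at 9.88, 12.5 and 10.03 RPKM in organoids, against 32.9 to 87.0 (median 57.0) in crypts (log2 change -2.31 ± 0.29, adjusted p = 2.68e-04). With any 1 organoid library left out 3 clock genes were lower, and after the GC and length correction 2 were lower. Without the jejunal or ileal organoid library 1 was higher.

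MHC class II genes present antigen and are made by crypt epithelium under interferon-gamma as well as by immune cells. Of 10 listed, 5 had enough reads to be tested, and 4 of these were lower in organoids. These 4 had at most 7 reads in any organoid library and passed the filter on reads through the crypt libraries alone. For them a higher level in crypts was a condition of being tested. H2-Ab1 had 0, 0.0459 and 0 RPKM in organoids, against 3.62 to 65.3 (median 9.17) in crypts, from 0, 1 and 0 reads in organoids against 40 to 667 in crypts (log2 change -3.63 ± 0.65, adjusted p = 0.00164; ratio of pooled read rates 0.00104, 95% counting interval 0.0000264 to 0.00582). Cd74, the invariant chain, had 0.457, 0.266 and 0.205 RPKM in organoids, against 2.47 to 259.6 (median 17.9) in crypts (log2 change -3.99 ± 1.20, adjusted p = 0.0205). The crypt values were highest in jejunal replicate 1 for both genes, and replicate 1 exceeded replicate 2 at each origin. Only H2-Ab1 kept its call in every fit that left out 1 library: 2 were lower without the duodenal organoid library and 1 without the jejunal or ileal one. By limma-voom on recovered reads 2 were lower. The fifth, H2-DMa, which helps load class II molecules with peptide, had 6.74, 5.37 and 6.504 RPKM in organoids, against 3.94 to 14.97 (median 5.78) in crypts and did not pass the test (adjusted p = 0.907). For Cd74 the adjusted p was 0.0556 without the duodenal organoid library, 0.132 without the jejunal organoid library and 0.104 without the ileal organoid library. The class II list summed to 5.98 to 7.88 RPKM in organoids and 12.4 to 430.0 RPKM in crypts, with most of the organoid sum from H2-DMa, beside the leukocyte sums given above. Ptprc (CD45), carried by all white blood cells, was at most 0.115 RPKM in organoids and 0.12 RPKM in crypts, and the part of immune cells in the class II result was not tested. Of 6 tested leukocyte genes 2 were lower, the macrophage gene Cd68 at 2.38, 3.25 and 2.52 RPKM in organoids, against 6.43 to 16.0 (median 8.24) in crypts (log2 change -1.45 ± 0.31, adjusted p = 0.00403) and Itgam at 0.118, 0.368 and 0.527 RPKM in organoids, against 0.203 to 1.5998 (median 1.07) in crypts (adjusted p = 0.0299), a call lost without any 1 organoid library or jejunal or ileal crypt replicate 1 (adjusted p 0.0540 to 0.155).

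Genes of MHC class I and of the immunoproteasome, which feeds it with peptides, gave 8 lower and 1 higher of 17 tested (median -1.11). H2-T3, which encodes the thymus leukemia antigen of intestinal epithelium, had 5.55, 8.54 and 6.56 RPKM in organoids, against 34.6 to 102 (median 65.0) in crypts (log2 change -3.03 ± 0.32, adjusted p = 1.47e-04). Psmb8, an immunoproteasome subunit, had 2.11, 1.45 and 3.14 RPKM in organoids, against 15.1 to 30.1 (median 23.7) in crypts (log2 change -2.89 ± 0.30, adjusted p = 1.43e-04). Tapbp, the loading chaperone tapasin, had 12.6, 9.11 and 9.76 RPKM in organoids, against 55.5 to 128 (median 68.6) in crypts (log2 change -2.80 ± 0.32, adjusted p = 1.80e-04). All 3 were without overlap between organoids and crypts. Genes of the interferon response gave 8 lower and 1 higher of 22 tested. The regulators Irf8, at 5.23, 8.96 and 6.42 RPKM in organoids, against 29.1 to 47.3 (median 41.1) in crypts (log2 change -2.40 ± 0.26, adjusted p = 1.52e-04), and Irf1, at 6.19, 9.39 and 11.97 RPKM in organoids, against 31.0 to 49.0 (median 39.5) in crypts (log2 change -2.02 ± 0.28, adjusted p = 4.19e-04), were lower. Ifi27 (Ifi27l2a) was the 1 member higher, at 4.80, 4.38 and 12.6 RPKM in organoids, against 0 to 1.82 (median 1.23) in crypts (adjusted p = 0.00338). Without the jejunal organoid library 5 class I genes and 4 interferon genes were lower, and with the replicate number as a block 11 class I genes were. Of 5 tested stromal genes only Vim, vimentin, was called, and it was higher, at 7.77, 6.19 and 4.87 RPKM in organoids, against 0.463 to 3.06 (median 1.43) in crypts (log2 change 1.61 ± 0.28, adjusted p = 0.00133); the fibroblast genes Col3a1, Lum and Grem1 were at 0 in all 9 libraries.

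Enterocyte genes of digestion and absorption sat between the crypt replicates. The mean level of the list was 4.85 to 5.53 in organoids, 3.26 to 4.49 in replicate 1 of the crypts, 6.06 to 7.39 in their replicate 2 and 8.33 to 8.85 in villi, as log2(RPKM + 1). Of 29 tested genes 4 were higher and 4 lower in the fit over all 9 libraries, whereas 17 were higher and 4 lower against crypt replicate 1 alone and 4 higher and 21 lower against crypt replicate 2 alone. Against either replicate alone the median change thus differed in sign, at 1.07 for replicate 1 and -1.63 for replicate 2. The sucrase-isomaltase gene 2010204N08Rik (Sis) had 121, 407 and 454 RPKM in organoids, against 2.30 to 108 (median 16.1) in crypts (log2 change 4.06 ± 0.996, adjusted p = 0.00803; 0.0660 without the jejunal organoid library and 0.0867 without the ileal organoid library). Lct, lactase, had 0.0300, 0.724 and 0.306 RPKM in organoids, against 0.616 to 108 (median 5.63) in crypts and Anpep, aminopeptidase N, had 24.2, 37.0 and 17.7 RPKM in organoids, against 41.5 to 960.0 (median 184) in crypts. Both were lower in the fit over all libraries (adjusted p = 0.0285 and 0.0247), but the Lct call was lost without the duodenal or jejunal organoid library (adjusted p 0.147 to 0.195) and the Anpep call was lost without any 1 organoid library or duodenal crypt replicate 2 (adjusted p 0.0539 to 0.153). The number higher was 2, 1 and 0 without the organoid library of duodenum, jejunum and ileum, and the number lower was 0, 0 and 2. After the GC and length correction 2 were higher and 1 lower. Villus material in the crypt libraries was not tested for its part in these counts.

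Genes of the microvillus, the actin-based brush border of absorptive cells, gave 9 lower and 1 higher of 14 tested (median -1.83). Against crypt replicate 1 alone 10 were lower, with a median of -1.06, and against crypt replicate 2 alone 11, with a median of -2.93; the difference was not tested. The 9 include Usp2 and the 1 higher was Plac8, at 3937, 2419 and 3382 RPKM in organoids, against 389 to 2776 (median 892) in crypts (log2 change 1.84 ± 0.63, adjusted p = 0.0359), neither of which builds the microvillus. Myo1a, the motor that ties the actin core to the membrane, had 16.7, 28.1 and 14.3 RPKM in organoids, against 129.7 to 397 (median 182) in crypts (log2 change -3.45 ± 0.38, adjusted p = 1.68e-04). Ush1c, harmonin of the tip links, had 17.3, 20.4 and 16.5 RPKM in organoids, against 45.7 to 87.5 (median 53.5) in crypts (log2 change -1.67 ± 0.29, adjusted p = 0.00136). Neither gene overlapped between organoids and crypts. The protocadherin Mupcdh (Cdhr5) of the same links had 41.2, 43.6 and 40.0 RPKM in organoids, against 131 to 651 (median 198) in crypts (log2 change -2.61 ± 0.52, adjusted p = 0.00267). Villin, Vil1, had 32.6, 44.0 and 32.5 RPKM in organoids, against 57.3 to 398 (median 175) in crypts (log2 change -2.17 ± 0.60, adjusted p = 0.0144). The level of the list was 4.08 to 4.37 in organoids, 5.09 to 6.86 in crypts and 7.33 to 7.62 in villi. Without the ileal organoid library, and after the GC and length correction, 5 members were lower. The Plac8 call was lost without any 1 organoid library or any 1 library of crypt replicate 1 (adjusted p 0.0510 to 0.1999), and the Vil1 call was lost without any 1 organoid library (adjusted p 0.0546 to 0.0971). Transcription factors of the intestinal epithelium were lower in 13 of 21 tested and higher in 1 (median -0.98). Hnf4a, the nuclear receptor of the absorptive programme, had 40.8, 48.6 and 23.6 RPKM in organoids, against 94.8 to 181 (median 135) in crypts (log2 change -1.89 ± 0.33, adjusted p = 0.00142). Klf4, a factor of differentiated cells, had 5.09, 4.98 and 4.40 RPKM in organoids, against 13.6 to 52.6 (median 30.1) in crypts (log2 change -2.40 ± 0.34, adjusted p = 5.14e-04). Klf5, a factor of dividing crypt cells, had 68.3, 97.0 and 78.3 RPKM in organoids, against 272 to 518 (median 305) in crypts (log2 change -2.07 ± 0.31, adjusted p = 6.05e-04). Of the factors, 7 were lower without the ileal organoid library, and after the GC and length correction 6 were lower and 3 higher.

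Paneth cell genes gave no call in either direction among 12 tested by limma; 2 had an unadjusted p below 0.05, and limma-voom on recovered reads called 0. The GC and length correction called 2 of them lower, and 11 lower against crypt replicate 1 alone; the median was -0.12 before the correction and -1.26 after it. The lysozyme gene Lyz (Lyz1) had 2715, 1973 and 5091 RPKM in organoids, against 1031 to 11813 (median 3564) in crypts (adjusted p = 0.705). The alpha-defensin Defcr24 (Defa24) had 35408, 36730 and 65988 RPKM in organoids, against 4756 to 73347 (median 27594) in crypts (adjusted p = 0.365), the same in each library as the deposited values of the near-identical Defcr6. Mmp7, the protease that activates alpha-defensins, had 228, 378 and 788 RPKM in organoids, against 43.3 to 586 (median 187) in crypts (adjusted p = 0.0617). For each of them the organoid values lay within or beside the crypt range. Against crypt replicate 1 alone 5 of the 12 were lower and none higher, and against crypt replicate 2 alone 3 were higher and none lower; with the replicate number as a block 3 were higher and 1 lower, and 2 were higher without replicate 1 of the duodenal or the ileal crypts. The list level was 6.69 to 8.47 in organoids and 5.13 to 9.25 in crypts, against 1.99 to 4.66 in villi. Goblet cell genes gave 3 higher and 1 lower of 12 tested, beside 21.2% higher and 22.4% lower of all genes tested. Tff3, a trefoil peptide of mucus, had 17364, 7662 and 16772 RPKM in organoids, against 1453 to 8213 (median 1935) in crypts (log2 change 2.42 ± 0.55, adjusted p = 0.00525), with ileal crypt replicate 2 inside the organoid range. Spdef, the goblet transcription factor, had 14.3, 11.2 and 15.2 RPKM in organoids, against 10.5 to 33.1 (median 15.5) in crypts (adjusted p = 0.313), and Atoh1, which commits cells to secretory fates, had 5.52, 3.40 and 6.42 RPKM in organoids, against 2.89 to 10.2 (median 3.54) in crypts (adjusted p = 0.696). Without the duodenal or jejunal organoid library 1 goblet gene was higher, and without the jejunal or ileal one 0 were lower. Tuft cell genes gave 4 higher and 1 lower of 12 tested, and 1 higher and 0 lower after the GC and length correction. Alox5ap, which tuft cells use to make leukotrienes, had 34.3, 17.8 and 32.9 RPKM in organoids, against 1.48 to 6.95 (median 4.51) in crypts (log2 change 2.57 ± 0.36, adjusted p = 4.43e-04), whereas the tuft marker Dclk1, at 0.612, 1.27 and 1.44 RPKM in organoids, against 0.424 to 0.930 (median 0.686) in crypts, did not pass the test (adjusted p = 0.171).

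Stem cell genes gave 4 higher and 2 lower of 17 tested (median 0.48), beside 21.2% higher and 22.4% lower of all genes tested. Lgr5 had 20.1, 25.997 and 22.5 RPKM in organoids, against 1.77 to 17.2 (median 4.64) in crypts (log2 change 1.98 ± 0.56, adjusted p = 0.0151; 0.0707 without the duodenal organoid library, 0.0989 without the jejunal organoid library and 0.0617 without the ileal organoid library). All organoid libraries lay above all crypt libraries for Lgr5, and ileal crypt replicate 1 came closest. Prom1, a membrane protein of crypt cells, had 53.1, 69.3 and 66.6 RPKM in organoids, against 14.8 to 31.1 (median 24.1) in crypts (log2 change 1.43 ± 0.31, adjusted p = 0.00420). Aqp4, a water channel of crypt cells, had 15.01, 31.4 and 31.6 RPKM in organoids, against 2.14 to 9.18 (median 5.64) in crypts (log2 change 2.13 ± 0.41, adjusted p = 0.00240). Olfm4, a secreted stem cell marker, had 420.0, 599.5 and 608 RPKM in organoids, against 33.4 to 1063 (median 325) in crypts and did not pass the test (adjusted p = 0.373); its crypt values were below 40 RPKM in replicate 2 of jejunum and ileum and above 900 RPKM in replicate 1 of the same origins. Ascl2, the Wnt-dependent stem cell factor, had 27.5, 11.5 and 20.7 RPKM in organoids, against 18.3 to 32.2 (median 24.5) in crypts (adjusted p = 0.369). Sox9, at 12.6, 10.4 and 10.3 RPKM in organoids, against 19.0 to 26.3 (median 23.8) in crypts, was lower (log2 change -0.98 ± 0.24, adjusted p = 0.00748; 0.0599 without the ileal organoid library). Without the jejunal or ileal organoid library 2 stem cell genes were higher, and 1 and 0 were lower. Against crypt replicate 2 alone 8 were higher, and against crypt replicate 1 alone 4 were lower. Wnt targets gave 2 higher, Lgr5 and Myc, and 8 lower of 17 tested (median -0.83). Efnb1, an ephrin that sorts crypt from villus cells, had 3.26, 3.17 and 2.12 RPKM in organoids, against 21.6 to 35.9 (median 24.1) in crypts (log2 change -2.82 ± 0.26, adjusted p = 1.09e-04). Axin2, the feedback inhibitor of the pathway, had 5.79, 10.2 and 4.67 RPKM in organoids, against 13.1 to 26.9 (median 18.4) in crypts (log2 change -1.34 ± 0.32, adjusted p = 0.00739; 0.0882 without the ileal organoid library). Without the ileal organoid library 1 Wnt target was lower, without the duodenal one 4 were, with any 1 organoid library left out 0 were higher, and after the GC and length correction 3 were higher and 3 lower.

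Notch genes gave 0 higher and 5 lower of 11 tested, and 1 higher and 2 lower after the GC and length correction. Nrarp, a feedback target of the pathway, had 4.88, 4.49 and 5.18 RPKM in organoids, against 12.04 to 24.4 (median 18.3) in crypts (log2 change -1.64 ± 0.28, adjusted p = 0.00138). The receptor Notch1 had 0.805, 1.03 and 0.498 RPKM in organoids, against 1.97 to 5.79 (median 4.13) in crypts (log2 change -1.39 ± 0.30, adjusted p = 0.00395), but its corrected change was -0.22 with an adjusted p of 0.552. In the fits that left out 1 library 2 to 4 Notch genes were lower, with 2 or 3 in 7 of these fits: each organoid library, duodenal crypt replicate 1, jejunal crypt replicate 2 and both ileal crypt libraries. BMP genes gave 5 lower and 1 higher of 11 tested, and the number lower was 5 after the GC and length correction. Id3, a direct BMP target, had 8.33, 2.20 and 5.63 RPKM in organoids, against 34.7 to 100.1 (median 52.1) in crypts (log2 change -3.27 ± 0.37, adjusted p = 1.79e-04). Id1, another, had 72.3, 20.1 and 26.05 RPKM in organoids, against 107 to 208 (median 145) in crypts (log2 change -2.11 ± 0.31, adjusted p = 5.47e-04). Smad7, the pathway's inhibitor, had 0.478, 0.569 and 0.327 RPKM in organoids, against 2.996 to 5.73 (median 3.73) in crypts (log2 change -1.76 ± 0.24, adjusted p = 3.73e-04). Organoids lay below crypts without overlap for these 3, and the jejunal organoids had the lowest Id values. The receptor Bmpr1a was the 1 member higher, at 9.69, 16.8 and 13.9 RPKM in organoids, against 4.81 to 10.8 (median 6.20) in crypts (adjusted p = 0.0289), a call lost without the jejunal or ileal organoid library, jejunal crypt replicate 1, jejunal crypt replicate 2, ileal crypt replicate 1 or ileal crypt replicate 2 (adjusted p 0.0523 to 0.160).

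EGF receptor ligands and targets of its ERK pathway gave 5 higher and 3 lower of 19 tested. Btc, betacellulin, had 5.42, 5.75 and 7.19 RPKM in organoids, against 0.136 to 0.820 (median 0.629) in crypts (log2 change 2.24 ± 0.22, adjusted p = 1.13e-04). The ERK target Dusp6 was higher, at 12.2, 15.8 and 12.9 RPKM in organoids, against 1.84 to 5.81 (median 2.89) in crypts (log2 change 1.79 ± 0.35, adjusted p = 0.00229). Erbb2, a receptor of the family, was lower, at 5.75, 7.36 and 4.21 RPKM in organoids, against 22.8 to 35.5 (median 27.4) in crypts (log2 change -2.13 ± 0.25, adjusted p = 2.26e-04), whereas Egfr had 2.26, 2.77 and 2.45 RPKM in organoids, against 1.37 to 3.97 (median 2.43) in crypts (adjusted p = 0.863). These genes, like Hbegf above, did not overlap between organoids and crypts, with the exception of Egfr. The number higher was 3 without the ileal organoid library. Cell cycle and DNA replication genes gave 2 higher and 6 lower of 27 tested, with a median of 0.06. Plk1, a mitotic kinase, had 7.29, 6.01 and 3.79 RPKM in organoids, against 21.0 to 33.5 (median 25.1) in crypts (log2 change -2.01 ± 0.27, adjusted p = 3.97e-04). Mcm2, a subunit of the replicative helicase, had 11.2, 8.97 and 7.44 RPKM in organoids, against 20.1 to 33.1 (median 24.2) in crypts (log2 change -1.31 ± 0.23, adjusted p = 0.00144). Pcna, the sliding clamp, was higher, at 144, 110.2 and 145 RPKM in organoids, against 19.98 to 86.4 (median 30.7) in crypts (log2 change 1.90 ± 0.40, adjusted p = 0.00363). Top2a, at 19.0, 28.1 and 17.5 RPKM in organoids, against 19.5 to 37.5 (median 22.7) in crypts, and Cdc2a (Cdk1), at 71.6, 38.0 and 51.2 RPKM in organoids, against 15.1 to 60.01 (median 23.5) in crypts, did not pass the test (adjusted p = 0.582 and 0.0655). Duodenal crypt replicate 2 was the highest library for many of these genes; without it 8 were higher, without the duodenal or ileal organoid library 1 was, and with any 1 organoid library left out 3 were lower. Among cell cycle inhibitors 1 of 6 tested was lower, Cdkn1a (p21) at 28.0, 25.7 and 35.9 RPKM in organoids, against 49.0 to 267 (median 68.0) in crypts (adjusted p = 0.0262), a call lost without any 1 organoid library (adjusted p 0.0737 to 0.139). Of 15 p53 targets tested 5 were higher and 3 lower; Phlda3 had 8.78, 4.36 and 11.2 RPKM in organoids, against 1.37 to 2.81 (median 1.86) in crypts (log2 change 1.53 ± 0.26, adjusted p = 0.00115) and Trp53inp1 had 2.09, 4.45 and 4.64 RPKM in organoids, against 0.590 to 1.18 (median 0.768) in crypts (log2 change 1.35 ± 0.20, adjusted p = 6.71e-04). Without the ileal organoid library 2 p53 targets were higher, without the jejunal one 3, and with any 1 organoid library left out 1 was lower. After the GC and length correction 5 were higher and 0 lower.

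Ribosomal protein genes of the cytosolic ribosome were higher in 24 of 28 tested and lower in none (median 1.44). Rps4x had 1692, 832 and 1402 RPKM in organoids, against 76.0 to 275 (median 139) in crypts (log2 change 3.15 ± 0.37, adjusted p = 2.20e-04). Rpl7 had 880.0, 504 and 959 RPKM in organoids, against 58.9 to 209 (median 131) in crypts (log2 change 2.60 ± 0.35, adjusted p = 3.99e-04). Arbp (Rplp0) had 3659, 2577 and 3927 RPKM in organoids, against 482 to 829 (median 628) in crypts (log2 change 2.40 ± 0.36, adjusted p = 6.76e-04). The organoid values of these genes exceeded all crypt values, with the jejunal organoids the lowest of the 3. Many processed pseudogenes resemble these short genes, and the sources used here do not say how reads were shared with them. The number higher was 13 without the ileal organoid library, and after the GC and length correction 15 were higher and 1 lower.

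Genes of bile acid handling, cholesterol and fatty acid synthesis were called higher or lower in shares near the 21.2% and 22.4% of all genes tested. Ppard, the fatty acid receptor PPAR delta, had 1.72, 2.02 and 1.98 RPKM in organoids, against 32.3 to 57.6 (median 41.8) in crypts (log2 change -3.88 ± 0.27, adjusted p = 3.14e-05). Ppara had 2.11, 4.40 and 1.81 RPKM in organoids, against 7.34 to 14.3 (median 10.6) in crypts (log2 change -1.64 ± 0.26, adjusted p = 8.79e-04). Of 23 tested genes of fat oxidation and ketogenesis that PPAR receptors control, 7 were higher and 4 lower, beside the 21.2% and 22.4% of all genes. The 2 receptors are counted among the 4. Both receptors lay below all crypt libraries in every organoid library. Without the jejunal or ileal organoid library 4 genes of that list were higher, and without the duodenal or ileal one 2 were lower. Fabp6, the bile acid binding protein of the ileum, had 0, 0.556 and 4.12 RPKM in organoids, against 5.48 to 14643 (median 33.3) in crypts (log2 change -5.76 ± 1.08, adjusted p = 0.00197). Its reads numbered 0, 4 and 22 in organoids, against 20 to 58233 in crypts, and the crypt level was highest in the ileum. Fgf15, the ileal hormone that bile acids induce, was higher, at 2.76, 6.13 and 28.9 RPKM in organoids, against 0.105 to 23.9 (median 0.962) in crypts (adjusted p = 0.0292), a call lost without any 1 organoid library or jejunal crypt replicate 1 (adjusted p 0.0532 to 0.127). Of 9 bile acid genes tested 2 were higher and 2 lower, and with any 1 organoid library left out 0 and 1. Cholesterol genes gave 6 higher and 5 lower of 21 tested: Fdps of the synthesis pathway was higher, at 55.5, 34.6 and 38.1 RPKM in organoids, against 5.81 to 25.1 (median 8.86) in crypts (log2 change 1.81 ± 0.39, adjusted p = 0.00412). Leaving out the organoid library of duodenum, jejunum or ileum gave 3, 1 and 2 cholesterol genes higher and 3, 3 and 2 lower; 2 were lower after the GC and length correction. Fatty acid synthesis gave 2 higher and 3 lower of 13 tested; 1 was higher without the jejunal organoid library, and after the GC and length correction 3 were higher and 0 lower.

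Genes of retinoid and alcohol metabolism gave 7 higher and 3 lower of 20 tested. Adh4, an alcohol dehydrogenase, had 36.0, 38.8 and 15.5 RPKM in organoids, against 0 to 8.09 (median 0.279) in crypts (log2 change 4.00 ± 0.56, adjusted p = 4.56e-04). Rbp4, the retinol carrier, had 35.1, 5.10 and 9.75 RPKM in organoids, against 1.19 to 1.95 (median 1.81) in crypts (log2 change 2.34 ± 0.38, adjusted p = 9.72e-04), and the retinoic acid receptor Rara was lower, at 3.92, 3.13 and 2.72 RPKM in organoids, against 12.6 to 20.8 (median 16.2) in crypts (log2 change -2.02 ± 0.28, adjusted p = 3.99e-04). Organoids did not overlap crypts for Adh4, Rbp4 and Rara. Without the jejunal organoid library 4 of the list were higher, and without the duodenal one 1 was lower. Genes of glycolysis and hypoxia gave 8 higher and 4 lower of 24 tested. Bnip3, a hypoxia-induced mitophagy receptor, had 9.78, 6.37 and 8.68 RPKM in organoids, against 0 to 1.6001 (median 0.402) in crypts (log2 change 2.62 ± 0.31, adjusted p = 2.31e-04). Leaving out the organoid library of duodenum, jejunum or ileum gave 5, 3 and 4 higher, and with any 1 of them left out, or any 1 library of crypt replicate 2, 2 were lower. Of 24 genes of oxidative phosphorylation tested 4 were higher and 2 lower; without the ileal organoid library 0 were higher, without the duodenal one 1 was, and 8 were without duodenal crypt replicate 2, while the number lower was 5 without duodenal crypt replicate 1 and 0 without the jejunal or ileal organoid library. Against crypt replicate 1 alone 14 were higher, and against crypt replicate 2 alone 6 were lower.

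Heat shock genes gave 3 higher and 5 lower of 16 tested, in counts near the shares over all genes. Dnajb1, a cochaperone, was lower, at 23.8, 22.3 and 24.6 RPKM in organoids, against 52.99 to 117 (median 87.7) in crypts (log2 change -1.77 ± 0.33, adjusted p = 0.00186). Without the duodenal or ileal organoid library 3 heat shock genes were lower, and without the ileal one 1 was higher. Genes of the integrated stress response and of unfolded proteins gave 6 higher and 6 lower of 28 tested, again near those shares. Asns, asparagine synthetase, had 140.4, 59.0 and 79.9 RPKM in organoids, against 10.3 to 34.1 (median 17.0) in crypts (log2 change 2.31 ± 0.38, adjusted p = 0.00108). Myd116 (Ppp1r15a, GADD34), which restarts translation after stress, was lower, at 6.62, 6.36 and 3.89 RPKM in organoids, against 24.3 to 90.2 (median 37.8) in crypts (log2 change -2.68 ± 0.37, adjusted p = 4.55e-04). Asns and Myd116 thus lay on opposite sides of the crypt range. Without the duodenal or ileal organoid library 3 of this list were higher, and without the ileal one 3 were lower.

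Ion transport and carbonic anhydrase genes gave 7 lower and 3 higher of 22 tested. Car4, a membrane carbonic anhydrase of the villus, had 0, 0.584 and 7.995 RPKM in organoids, against 24.8 to 152 (median 88.7) in crypts (log2 change -4.96 ± 0.70, adjusted p = 4.89e-04), with its organoid signal mostly in the ileal library. Car1, a cytosolic one, had 0, 0 and 0.182 RPKM in organoids, against 6.75 to 25.1 (median 12.3) in crypts, from 0, 0 and 3 reads in organoids against 83 to 158 in crypts (log2 change -3.65 ± 0.32, adjusted p = 9.46e-05; ratio of pooled read rates 0.00473, 95% counting interval 0.000974 to 0.0139). Without the ileal organoid library 2 members were lower and 0 higher, without the duodenal one 4 were lower and 1 higher, and after the GC and length correction 4 were lower. Keratin and junction genes gave 7 higher and 3 lower of 20 tested: Ocln, occludin, was higher, at 34.0, 49.7 and 46.3 RPKM in organoids, against 7.62 to 21.3 (median 11.8) in crypts (log2 change 1.75 ± 0.35, adjusted p = 0.00300). Without the duodenal organoid library 4 were higher and 1 lower, without the jejunal one 1 was lower and without the ileal one 0. Hox genes of the B cluster, which mark position along the gut, gave 5 lower and none higher of 7 tested. Hoxb4 had 0, 0.258 and 0.383 RPKM in organoids, against 0.458 to 16.9 (median 1.55) in crypts (log2 change -1.67 ± 0.43, adjusted p = 0.0105), a call lost without the ileal organoid library (adjusted p 0.105). The ileal library was the highest organoid library, and the ileal crypts were the highest crypts. None of the 7 was lower without the ileal organoid library, without either ileal crypt library 3 were, and after the GC and length correction 1 was. Of 4 tested Y-linked genes 2 were lower, Ddx3y and Eif2s3y, with 0 reads in organoids against 531 and 410 in crypts, which made them at least 147-fold and 114-fold lower in organoids (floor of 3 reads over the organoid group). The Ddx3y call was lost without the duodenal or jejunal organoid library (adjusted p 0.0572 to 0.0623), and the Eif2s3y call was lost without any 1 organoid library or any 1 library of crypt replicate 2 (adjusted p 0.0729 to 0.166).

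Among the 12 genes with the widest changes in each direction, several belong to none of these lists. 8430408G22Rik (Depp1) had 76.7, 13.6 and 17.3 RPKM in organoids, against 0 to 0.179 (median 0.0779) in crypts (log2 change 4.67 ± 0.37, adjusted p = 6.56e-05). It passed the filter on reads through the organoid libraries alone. 5033414D02Rik (Plgrkt), a plasminogen receptor, had 1259, 759 and 1454 RPKM in organoids, against 19.1 to 79.1 (median 46.1) in crypts (log2 change 4.61 ± 0.46, adjusted p = 1.24e-04). Purb, a single-strand nucleic acid binding protein, had 7.40, 6.06 and 2.94 RPKM in organoids, against 84.5 to 688 (median 175) in crypts (log2 change -4.89 ± 0.56, adjusted p = 1.84e-04). The first and second lay above every crypt library and Purb below, at all origins. Batf2, a transcription factor induced by interferon, had 0.606, 0.353 and 0.106 RPKM in organoids, against 7.48 to 59.8 (median 19.7) in crypts (log2 change -4.05 ± 0.53, adjusted p = 3.26e-04). Epn1, an endocytic adaptor, had 13.5, 13.1 and 10.1 RPKM in organoids, against 122 to 228 (median 174) in crypts (log2 change -3.70 ± 0.28, adjusted p = 5.38e-05). Both were without overlap between organoids and crypts, as were Apol10a and Gp1bb, with log2 changes of -3.74 and -3.79 (adjusted p = 1.24e-04 and 9.03e-05).

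Whether the organoid-crypt difference itself changed with origin was tested with an interaction term over 6 group means and 3 residual degrees of freedom. No gene of 11255 passed limma's F-test at an adjusted p below 0.05, and 138 had an unadjusted p below 0.05. limma-voom on recovered reads gave 0 calls as well, with 80 genes at an unadjusted p below 0.05. Without a filter on low values 134 of 15416 genes were called, a set that includes genes read in few libraries. With 1 organoid library per origin, the spread in this test comes from the crypt pairs alone, so it assumes that organoid libraries would vary like crypt libraries. For 4634 of the 4904 called genes, the organoid library of every origin lay beyond both crypt libraries of that origin, in the direction of the call. These genes were called from the same 9 libraries, so the count follows in large part from the calls. It is no separate support for a like difference at every origin.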

How the data were processed

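Poly(A) RNA was isolated with Trizol LS, Poly(A)Purist MAG and the mRNA-ONLY kit, turned into libraries by the SOLiD Total RNA-Seq Kit, and 50 bp were read on SOLiD 4, per the labels' protocols. Alignment with BWA to mm9 is named in the submitters' processing notes; versions, strand use and the counting rule are not given there. The deposited values are RPKM per transcript, made by the authors, with exon length and mm9 coordinates beside them per the file headers; whether the first base is 0 or 1 is not stated. The transcript with the longest exons stood for each symbol. RPKM times exon length gave whole reads within 0.02 of a read, from which library totals followed. Groups came from the labels.

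Genes with at least 10 reads at the median depth in 3 of 9 libraries and 15 reads in all were tested, 11255 of 15416 with a read. Genes near 0 in crypts could pass this filter only by their reads in the 3 organoid libraries. Those near 0 in organoids could pass it only by their reads in crypts. limma 3.58.1 (R 4.3.3) was fitted with its trend to log2(RPKM + 1), tissue plus origin, with 5 residual degrees of freedom. Its p-values were Benjamini-Hochberg adjusted, with a threshold of 0.05. The fit was also run on simulated reads, with noise drawn separately for each library. They had no GC trend and no effect shared by same-numbered crypt replicates. That run thus does not cover these features of the data. Tables and figures used Python 3.11.15, pandas 2.3.3, numpy 2.4.6 and matplotlib 3.10.9. Counting intervals and floors cover counting error only. Crypt replicate numbers were taken as pairs across origins, since deviations of same-numbered libraries correlated at 0.42, 0.51 and 0.79. Alternatives were the pseudocount, filter, scaling, transcript choice, limma-voom on recovered reads, no origin term, all 12 libraries, 1 crypt replicate alone, the replicate block and leaving out each library. The GC and length correction and its combinations were chosen after seeing the data.

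Members and lists were chosen with earlier results of these data known. Genes named were the 12 widest called changes per direction at a mean of at least 5 RPKM with the same side at every origin, the 6 markers and up to 4 called members per list by p; not all are printed. Outside that rule, and chosen after their values were seen, are Anpep, Arbp, Ascl2, Atoh1, Bmpr1a, Cd3d, Cd3g, Cd79a, Cd8a, Cdc2a, Chga, Chgb, Clu, Col3a1, Cyp2c55, Cyp2c65, Dclk1, Duox2, Duoxa2, Dusp6, Egfr, Fkbp5, Fos, Ghrl, Gip, Grem1, Gsta4, H2-DMa, Ifi27, Jun, Krt7, Lct, Lgr5, Lum, Lyz, Mmp7, Mt3, Mtf1, Mupcdh, Myc, Neurog3, Nr1i2, Nr1i3, Nts, Olfm4, Plac8, Ptprc, Pyy, Sct, Sgk1, Slc30a1, Slc39a8, Spdef, Sst, Top2a and Vil1. A few genes are not reported here.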

Additional observations from a re-analysis of the deposited data

Results flagged for a closer look

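Organoid minus crypt, on the log2(RPKM + 1) scale, had opposite signs at different origins, with both crypt libraries of an origin on the same side of the organoid library, for 7 genes named above: Ascl2 at 0.0646 in duodenum and -0.81 in jejunum, Atoh1 at 0.73 in duodenum and -0.0443 in jejunum, Chga at -0.42 in jejunum and 0.59 in ileum, Dclk1 at -0.0697 in duodenum, 0.53 in jejunum and 0.50 in ileum, Egfr at -0.40 in duodenum, 0.26 in jejunum and 0.30 in ileum, Slc30a1 at -0.47 in duodenum and 0.12 in jejunum and Top2a at -0.58 in duodenum, 0.31 in jejunum and -0.33 in ileum. The interaction test over all genes called none of them, and none was called between organoids and crypts.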

How the results depend on the processing

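Of the genes tested, 4548 to 6467 were called with the scaling, filter, pseudocount, model, transcript or crypt replicates changed 1 at a time, with 1 count moved by over 1.5 times: 3682 genes were higher against crypt replicate 1 alone. Leaving out each library gave 2322 to 5712 calls, 1025 to 3188 higher and 1297 to 2737 lower. The origin interaction called 0 genes in each alternative but the one without a filter, with 134, and the cause was not tested. With the replicate block 6250 genes were called, 3085 higher and 3165 lower, and all 4904 calls were kept; beyond the list counts given above it ended no call of a named gene. Of 130 called genes named, 115 kept the call in these 14 alternatives, and 107 did so with each library left out as well. Without a filter Anpep, Cd74, Cdkn1a, Duoxa2, Eif2s3y, Fgf15, Lct, Myc, Nr1i3 and Plac8 lost it; without the origin term Duox2, Duoxa2, Fgf15, Hoxb4, Itgam, Nr1i3 and Reg1; against crypt replicate 2 alone Bmpr1a, Nr1i3 and Plac8; after quantile normalisation Eif2s3y, Myc and Plac8, the last with a change of 0.58; scaled to reads in genes Bmpr1a and Myc; by limma-voom Cd74; with all 12 libraries Fgf15; and with an RPKM of at least 1 Itgam. In the GC and length correction, changes of opposite sign to those above were -0.98 for Mmp7, -1.07 for Defcr24 and -1.29 for Olfm4 against crypt replicate 1 alone, and 0.77 for Chga, 0.66 for Spdef, 0.11 for Notch1 and -0.32 for Plac8 against crypt replicate 2 alone; the cause was not tested. Depth limits genes read a few times: 1 read in 2 kb was worth up to 0.0949 RPKM in crypts.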
